A study of Mus musculus with 2 samples.

Results

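Levels of the RNAs for cell cycle inhibitors and pocket proteins were measured in newborn mouse hearts. The 10 genes were taken by symbol from the 43346 Ensembl genes quantified: the Cip/Kip inhibitors Cdkn1a, Cdkn1b and Cdkn1c, the INK4 inhibitors Cdkn2a, Cdkn2b, Cdkn2c and Cdkn2d, and the pocket protein genes Rb1, Rbl1 and Rbl2. All 10 were found, with 30 annotated transcripts among them. The samples were total RNA from 2 single hearts of the inbred mouse strain B6NCrl, collected on postnatal day 0, with no treatment or engineered allele named in the labels. Replicate 1 was the heart of pup 2 and replicate 2 that of pup 3, both of pregnancy 1. Both carry the same donor identifier and were treated as 2 animals because their descriptions name different pups. With 1 group of 2 littermates there was no other age or treatment to compare with, so no p-value is given (the smallest two-sided p of an exact sign-flip test of 2 values is 0.5).

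Progress from the G1 phase of the cell cycle into DNA synthesis is driven by cyclin D with the kinases Cdk4 and Cdk6 and by cyclin E with Cdk2. INK4 proteins bind Cdk4 and Cdk6, Cip/Kip proteins bind a wider set of cyclin and kinase complexes, and the pocket proteins hold E2F transcription factors in check until these kinases phosphorylate them. In the mouse heart, muscle cells still divide around birth and leave the cell cycle soon afterwards.

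The libraries held 46151722 and 44707283 expected counts (estimated reads per gene). Levels are given in TPM, a measure of transcript abundance that divides reads by transcript length and library depth and so allows genes to be compared with each other. The bounds called credibility intervals are those the authors deposited, and they cover counting and read sharing within a library, not the spread between animals. Heart muscle markers were abundant (6 of 6 detected, with a summed level of 45486 and 41129 TPM), and lymphocyte and thymus markers were not detected (0 of 5). Over all protein-coding genes, 54.5% were at 1 TPM or more in both hearts, the threshold for detection. Red cell markers were lower in pup 3, with a summed level of 13809 and 8835 TPM and 6 of 6 genes past 1.5-fold. Among genes with a mean count of at least 50, 2.07% passed 1.5-fold in either direction. Of 5 lung epithelial markers 1 was detected in both hearts. Their summed level was 29.9 TPM in pup 2 and 637.9 TPM in pup 3, in pup 3 mostly from Scgb3a2 (2.96 and 563 TPM). Scgb1a1 was at 0.97 and 74.3 TPM and Sftpc at 25.5 and 0.34 TPM. Sftpb (0.42 and 0.25 TPM) and Nkx2-1 (0.04 TPM in both) were low in both hearts. Markers of other heart cells were also detected, 5 of 5 each for endothelial cells, for fibroblasts and for smooth muscle and pericytes. Epicardial markers were detected in 4 of 4 cases and macrophage markers in 4 of 5. The part of any of these cell types in the values that follow was not tested. In whole tissue, fewer cells of a type and less RNA per cell cannot be told apart.

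Stretches before the transcription starts are shown for the genes at the ends of the range of levels, for Cdkn1a, which has a p53 half-site pair before 1 of its starts, and for Rbl1, which has a match to an E2F site. RefSeq (assembly GRCm38.p6) gave 11 starts for 8 of the 10 genes, and the 250 bases before each start were searched on both strands. Transcripts were tied to a RefSeq start when their own start lay within 100 bases of it. In each line below, written 5′ to 3′ on the strand of the gene, capitals mark a p53 paired half-site (CATG, any 6 bases, CATG) or an E2F site (TTTCGCGC or TTTCCCGC), or, where none of these was found, each GC box (GGGCGG).
Cdkn1a, upstream start (chr17:29090729-29090978, plus strand): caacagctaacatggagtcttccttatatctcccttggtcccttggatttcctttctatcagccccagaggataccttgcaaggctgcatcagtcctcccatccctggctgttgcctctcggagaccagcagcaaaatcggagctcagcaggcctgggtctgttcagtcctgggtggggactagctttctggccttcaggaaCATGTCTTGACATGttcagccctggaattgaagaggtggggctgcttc
Cdkn1a, downstream start (chr17:29093519-29093768, plus strand): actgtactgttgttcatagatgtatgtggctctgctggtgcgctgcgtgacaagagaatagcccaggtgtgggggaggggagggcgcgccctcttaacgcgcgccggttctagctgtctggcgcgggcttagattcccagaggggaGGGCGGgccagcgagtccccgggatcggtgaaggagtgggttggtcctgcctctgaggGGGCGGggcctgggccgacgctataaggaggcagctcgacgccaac
Cdkn2a, upstream start (chr4:89294620-89294869, minus strand): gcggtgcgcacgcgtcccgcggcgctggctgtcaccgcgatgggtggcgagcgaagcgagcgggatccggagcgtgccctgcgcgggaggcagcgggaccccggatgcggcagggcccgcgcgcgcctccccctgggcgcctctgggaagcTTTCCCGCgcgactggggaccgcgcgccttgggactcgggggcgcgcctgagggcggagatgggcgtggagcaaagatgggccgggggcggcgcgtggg
Cdkn2a, downstream start (chr4:89282193-89282442, minus strand): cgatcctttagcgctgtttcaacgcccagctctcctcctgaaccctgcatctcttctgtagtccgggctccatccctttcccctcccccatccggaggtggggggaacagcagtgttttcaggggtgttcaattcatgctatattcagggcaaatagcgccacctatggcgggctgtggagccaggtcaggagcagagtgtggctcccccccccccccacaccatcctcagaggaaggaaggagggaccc
Cdkn2d (chr9:21291210-21291459, minus strand): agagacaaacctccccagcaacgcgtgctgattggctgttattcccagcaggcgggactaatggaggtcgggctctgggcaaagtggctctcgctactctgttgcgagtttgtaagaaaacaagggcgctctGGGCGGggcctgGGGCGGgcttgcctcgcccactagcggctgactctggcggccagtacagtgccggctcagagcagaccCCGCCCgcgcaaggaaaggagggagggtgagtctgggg
Rbl1 (chr2:157204535-157204784, minus strand): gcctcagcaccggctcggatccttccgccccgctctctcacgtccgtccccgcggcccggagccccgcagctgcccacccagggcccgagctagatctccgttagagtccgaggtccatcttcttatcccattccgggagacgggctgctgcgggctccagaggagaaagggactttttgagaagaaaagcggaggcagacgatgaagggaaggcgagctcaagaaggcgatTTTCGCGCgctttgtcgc
The p53 half-site pair stood 34 bases before the upstream Cdkn1a start and was found in 0.488% of 32807 mouse stretches of the same kind. The E2F letters TTTCGCGC stood 10 bases before the Rbl1 start (0.256% of all stretches), and TTTCCCGC stood 91 bases before the upstream Cdkn2a start (0.893%). GC boxes were found in 6 of the 11 stretches and in 32.7% of all. The CHR element TTTGAA was found in 2 of 11 (16.0% of all), before Cdkn2b and Rbl2, and neither TTTGGCGC (0.418% of all) nor the TATA box TATAAA (12.4% of all) was found in any of the 11. The stretch before the upstream Cdkn2a start was 78.4% G and C with 40 CpG, and that before the upstream Cdkn1a start was 54% with 2 CpG, against a median of 52.4% and 6 CpG. A match describes letters only, and neither binding nor methylation was measured.

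Of the 10 genes, 8 were detected at 1 TPM or more in both hearts, against a background of 29.6% of Ensembl genes and 54.5% of protein-coding genes. Cdkn2d, Cdkn1c and Cdkn1a led with means between 43.3 and 56.4 TPM. Cdkn1b and Cdkn2c came next, the 3 pocket protein genes lay between 4.87 and 9.04 TPM, and Cdkn2b and Cdkn2a fell below the detection threshold in both pups. The median of the 10 means was 10.99 TPM, beside 1.99 TPM over all 21474 protein-coding genes, detected or not. Over detected genes only, the medians were 16.1 TPM (8 genes) and 12.0 TPM (11699 protein-coding genes). Neighbours in the order were counted as separated when both pups gave the same direction, the mean log2 ratio of TPM + 1 exceeded the gap between the pups, and the credibility intervals did not overlap in either pup. By this rule 5 of 9 neighbouring pairs were separated. The 4 pairs not separated were Cdkn1c and Cdkn1a, Rbl2 and Rb1, Rb1 and Rbl1, and Cdkn2b and Cdkn2a.

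**Figure D1:**
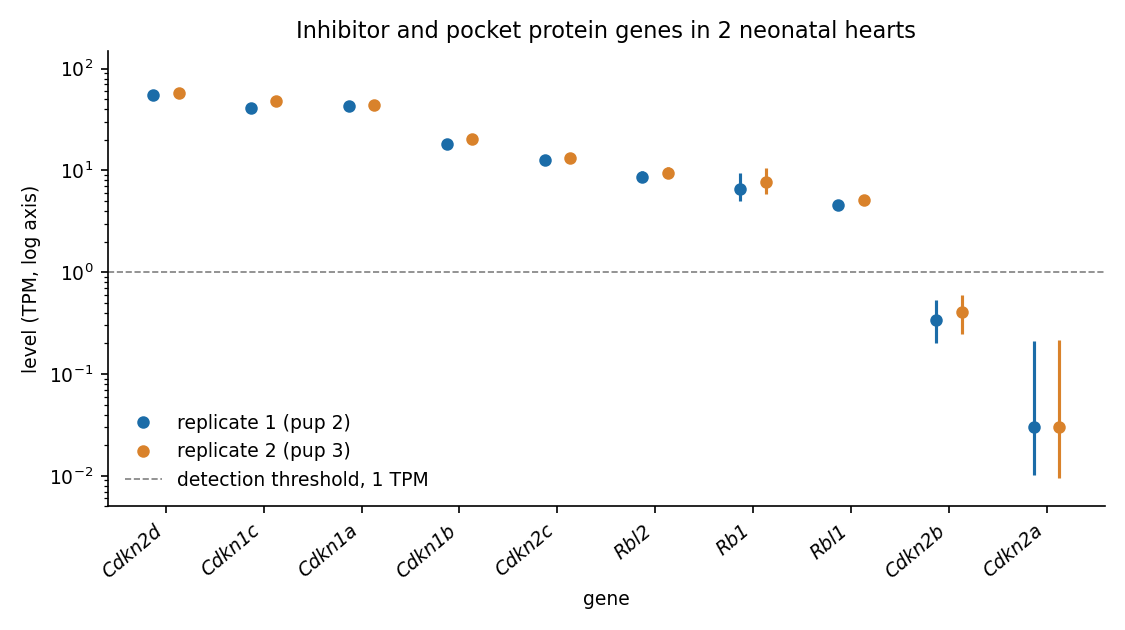
Level of each of the 10 genes in TPM on a log axis, with 1 point per heart and a vertical line for the deposited credibility interval (hidden behind the point where it is short). The dashed line is the detection threshold of 1 TPM; 8 genes lie above it in both hearts, and Cdkn2b and Cdkn2a lie below.

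Cdkn1c and Cdkn1a were the leading Cip/Kip RNAs, at similar levels, and Cdkn1b was lower than both. Cdkn1a (p21), the inhibitor best known as a target of p53, was at 42.9 TPM in pup 2 and 43.7 TPM in pup 3 (mean 43.3 ± 0.516, SD, n = 2). Cdkn1c (p57), an imprinted gene expressed mainly from the maternal allele, was at 41.1 and 47.8 TPM (44.4 ± 4.70). Cdkn1b (p27), an inhibitor of cyclin E and Cdk2 complexes, was at 18.0 and 20.4 TPM (19.2 ± 1.68). The intervals of the pups overlapped for Cdkn1a and did not overlap for Cdkn1b or Cdkn1c, both of which were higher in pup 3.

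Cdkn1a was 2.25-fold and Cdkn1c 2.31-fold above Cdkn1b in mean TPM, and both differences were larger than the spread between the pups. The order of Cdkn1c and Cdkn1a changed between the pups, with a log2 ratio of TPM + 1 of -0.06 in pup 2 and 0.13 in pup 3, so these were not separated. Cdkn1a lies on chromosome 17 (29090976 to 29100727, mm10), Cdkn1b on chromosome 6 (134920401 to 134925513) and Cdkn1c on chromosome 7 (143458339 to 143461050). Among detected protein-coding genes, 79.6% had a lower mean TPM than Cdkn1a, 80.2% a lower one than Cdkn1c and 62.1% a lower one than Cdkn1b.

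Most of the Cdkn1a TPM was assigned to the transcript from the upstream start, the one preceded by the p53 half-site pair. Cdkn1a-202, from that start, was at 30.1 and 30.3 TPM, which was 70.2% and 69.3% of the gene's TPM. Cdkn1a-201, from the downstream start preceded by 2 GC boxes, was at 9.60 TPM in pup 2 and 7.22 TPM in pup 3. Cdkn1a-203, which starts further downstream, was at 3.20 and 6.17 TPM. In reads the starts were closer, since Cdkn1a-202 is shorter (748 bases, against 1910 for Cdkn1a-201): the upstream transcript held 746 and 742 expected counts and the downstream one 663 and 494. The interval of Cdkn1a-201 did not overlap between the pups, and the intervals of the other Cdkn1a transcripts did. The transcripts share exons, so their split is an estimate, and the annotation used for the starts gives Cdkn1a-202 as 922 bases.

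Cdkn1b and Cdkn1c were each led by 1 transcript in both hearts. Cdkn1b-201 was at 15.5 and 17.6 TPM, and Cdkn1b-202, from the same start, at 2.52 and 2.75 TPM. Cdkn1c-201 was at 35.0 and 40.1 TPM, and Cdkn1c-202 at 6.13 and 7.68 TPM. Neither gene changed its main transcript between the pups.

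Among the INK4 genes, Cdkn2d carried most of the RNA, Cdkn2c was intermediate, Cdkn2b was below 1 TPM but counted in both libraries, and Cdkn2a was at the limit of what these libraries could show. Cdkn2d (p19Ink4d), an inhibitor of Cdk4 and Cdk6 also known from neurons that have stopped dividing, was at 55.5 and 57.3 TPM (56.4 ± 1.27), the highest mean level of the 10 genes. Cdkn2c (p18Ink4c), which binds the same kinases, was at 12.7 and 13.2 TPM (12.95 ± 0.396). Cdkn2b (p15Ink4b), known for its induction by TGF-beta, was at 0.34 and 0.41 TPM on 17 and 20 counts. The intervals of the pups overlapped for Cdkn2d, Cdkn2c and Cdkn2b. Cdkn2d made up 81.0% and 80.7% of summed INK4 TPM, and Cdkn2c 18.5% and 18.7%.

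Cdkn2d was 4.35-fold above Cdkn2c and 150-fold above Cdkn2b in mean TPM, and Cdkn2c was 34.5-fold above Cdkn2b. Each of these differences had non-overlapping intervals in both pups. Cdkn2d lies on chromosome 9 (21288410 to 21291407), Cdkn2c on chromosome 4 (109660876 to 109667189) and Cdkn2b on chromosome 4 (89306299 to 89311039). Among all genes, 84.1% of detected protein-coding genes had a lower mean TPM than Cdkn2d, and 51.8% a lower one than Cdkn2c. Cdkn2d and Cdkn2b each had 1 annotated transcript. Cdkn2c-201 was at 8.30 and 8.68 TPM and Cdkn2c-202 at 4.36 and 4.56 TPM, while in expected counts the longer Cdkn2c-202 was ahead (395 and 408, against 319 and 330 for Cdkn2c-201).

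Cdkn2a, which encodes both p16Ink4a and, from another first exon and reading frame, the p53 activator Arf, had 1 count in each library. The exact 95% Poisson interval of a count of 1 runs from 0.0253 to 5.57 counts, so the level was at most 0.183 TPM in pup 2 and 0.185 TPM in pup 3 by counting error alone. The read of each library was assigned to Cdkn2a-202, which starts at the upstream exon (position 89294653 on chromosome 4), the Arf exon. The p16Ink4a transcript, Cdkn2a-201, from the downstream start, had 0 counts in both hearts, which allows up to 0.104 and 0.106 TPM (3 counts). These limits cover counting error only, and no fold is given for a gene with 1 count. Cdkn2b, its neighbour at a distance of 11646 bases, was not separated from Cdkn2a because their intervals overlapped in pup 2.

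**Figure D2:**
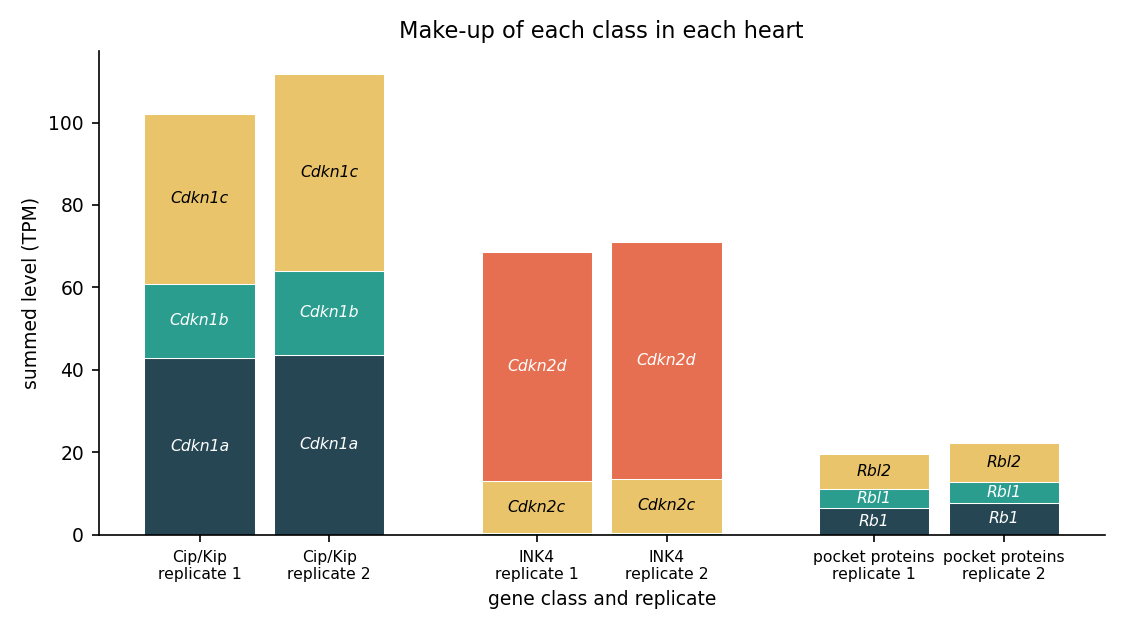
Summed level in TPM of each class in each heart, as stacked bars of its genes. The Cip/Kip bars reach 102.1 and 111.8 TPM, the INK4 bars 68.5 and 70.9 TPM and the pocket protein bars 19.7 and 22.4 TPM; Cdkn2b and Cdkn2a are too low to be visible.

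Summed over genes, Cip/Kip RNAs were at 102.1 and 111.8 TPM, INK4 RNAs at 68.5 and 70.9 TPM, and pocket protein RNAs at 19.7 and 22.4 TPM. The stacked bars by class show that the order of the classes was the same in both hearts. Cip/Kip sums were 1.49-fold and 1.58-fold the INK4 sums, and 5.17-fold and 4.99-fold the pocket protein sums. Cdk2, Cdk4 and Cdk6 together were at 344.9 and 335.7 TPM, 3.38-fold and 3.003-fold the Cip/Kip sums. Counting protein-coding transcripts only, the kinase sum was 139.8 and 147.7 TPM and the pocket protein sum 11.9 and 12.2 TPM, while the Cip/Kip and INK4 genes had only coding transcripts.

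The pocket protein genes were the lowest of the detected genes, and their ranking depended on which transcripts were counted. Rbl2 (p130), the pocket protein typical of resting cells, was at 8.57 and 9.5 TPM (9.04 ± 0.658). Rb1, the retinoblastoma gene, was at 6.59 and 7.73 TPM (7.16 ± 0.806). Rbl1 (p107), a pocket protein whose gene is itself a known E2F target, was at 4.57 and 5.16 TPM (4.87 ± 0.417). All 3 were slightly higher in pup 3 in TPM, with intervals that overlapped between the pups. Rbl2 was 1.86-fold above Rbl1 with intervals apart in both pups, whereas Rb1 was not separated from either.

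Much of the TPM of Rb1 came from short noncoding transcripts with few reads. The coding transcript Rb1-201 (4656 bases, 27 exons) held 417 and 323 expected counts, 88.8% and 81.6% of the gene's counts, but only 36.4% and 24.3% of its TPM (2.40 and 1.88 TPM). Rb1-202, of 411 bases, was at 2.18 and 2.97 TPM on 26.0 and 35.0 expected counts. Rb1-206, of 408 bases, was at 1.87 and 2.5 TPM on 22 and 29.1 expected counts. The main transcript by TPM was therefore Rb1-201 in pup 2 and Rb1-202 in pup 3, and by counts it was Rb1-201 in both. The intervals of Rb1-202 (0.71 to 3.90 TPM in pup 2, 1.66 to 4.54 TPM in pup 3) overlapped those of Rb1-201 in both pups. The change of main transcript by TPM was thus not resolved.

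These short Rb1 transcripts lie in exons of genes on the opposite strand. All 408 bases of Rb1-206 overlap exons of Lpar6, a lysophosphatidic acid receptor gene inside Rb1, which was at 5.45 and 5.89 TPM on 1102 and 1179 expected counts. Of the 411 bases of Rb1-202, 383 overlap exons of Rcbtb2, which was at 36.5 and 34.4 TPM, and 105 of the 4656 bases of Rb1-201 do so as well. Nothing in the labels or file headers says whether strand was used in counting, and without it the reads of opposite strands cannot be told apart. In pup 2 the expected counts of Rb1 (469.73) and Rcbtb2 (2440.27) add to a whole number, as do those of Rbl2 (1446.82) and Aktip (2224.18). In pup 3 those of Rb1 (395.65) and Rcbtb2 (2411.46) do so only together with those of Lpar6 (1178.89). Reads were thus shared among these overlapping genes, and strand did not separate them there. The posterior SD of the count, a deposited measure of how uncertainly reads were assigned, was 11.2 and 11.3 for Rb1 and 5.62 and 5.39 for Rbl2, and 0 for the other 8 genes. The noncoding Gm17233 (0.04 and 0 TPM) and Mir687 (0 counts in both) also lie within Rb1, on its own strand and outside its exons.

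Rb1 gave opposite directions between the pups in its coding and short transcripts. Rb1-201 was lower in pup 3, with intervals that did not overlap (2.13 to 2.59 TPM in pup 2, 1.64 to 2.04 TPM in pup 3). Rb1-202 and Rb1-206 were higher in pup 3, with intervals that overlapped. The log2 ratio of Rb1 counts, pup 3 over pup 2, was -0.21 after scaling by library, while the log2 ratio of its TPM was 0.23. The average length by which the deposited table divided Rb1 counts differed, 1966 bases in pup 2 and 1454 bases in pup 3.

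Rbl1 and Rbl2 differed in how much of their RNA was coding. Rbl1-201, the coding transcript, was at 1.86 and 2.20 TPM, and Rbl1-202, annotated as a retained intron, at 2.59 and 2.45 TPM. The intervals of Rbl1-201 and Rbl1-202 overlapped in both pups, so their order by TPM was not resolved. By counts Rbl1-201 led with 58.8% and 62.4% of the gene. Rbl1-203, another retained intron, was at 0 and 0.29 TPM. By TPM alone, without regard to intervals, a noncoding main transcript in both hearts was found in 7.36% of 8631 detected coding genes with more than 1 transcript. Rbl2-201, the coding transcript, was at 7.68 and 8.15 TPM, 89.7% and 85.8% of the gene, and Rbl2-202, a retained intron, at 0.30 and 0.49 TPM. Of Rbl2-201, 418 of 4925 bases overlap exons of Aktip on the opposite strand (35.0 and 41.4 TPM). The pseudogene Gm14277 (0.21 and 0.32 TPM) lies in an Rbl1 intron. The newer annotation also places exons of Gm44732 opposite Cdkn1c, of Gm45464 opposite Rbl2 and of AC167363.2 opposite Cdkn1a, and these genes were not analysed here. The overlaps cover 589 of 1893 bases of Cdkn1c-201, 408 of 4925 of Rbl2-201 and 93 of 1910 of Cdkn1a-201. Since Gm44732 was not among the genes quantified, the posterior SD of 0 for Cdkn1c could not reflect reads shared with it.

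**Figure D3:**
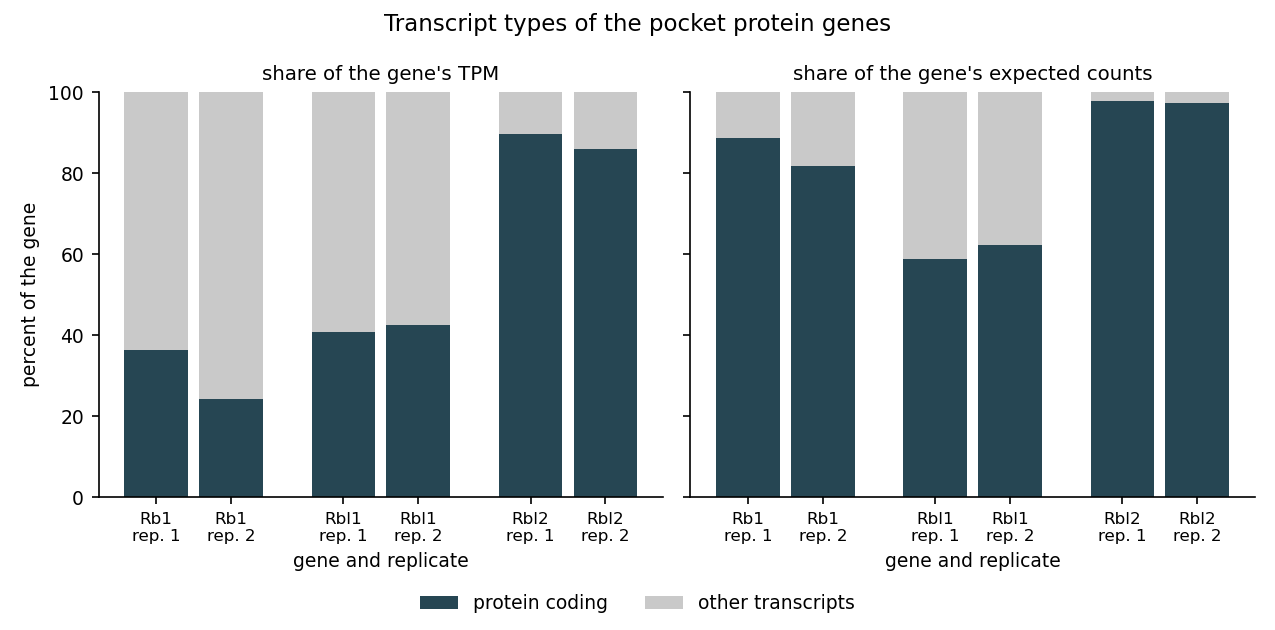
Percent of each pocket protein gene in protein-coding (dark) and other (grey) transcripts, by TPM on the left and by expected counts on the right, with 1 bar per gene and heart. For Rb1 the coding share is 36.4% and 24.3% by TPM and 88.8% and 81.6% by counts.

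On coding transcripts alone, a comparison chosen after the values were seen, Rbl2 stood apart from both other pocket protein genes. Rbl2-201 was 3.90-fold above Rbl1-201 in mean TPM, with a mean log2 ratio of TPM + 1 of 1.56 ± 0.06 (SD, n = 2). The log2 ratio of Rb1-201 to Rbl2-201 was -1.51 ± 0.22, with intervals apart in both pups. Rb1-201 and Rbl1-201 were not separated, with log2 ratios of 0.25 in pup 2 and -0.15 in pup 3. Rb1 lies on chromosome 14 (73183673 to 73325822), Rbl1 on chromosome 2 (157145893 to 157204534) and Rbl2 on chromosome 8 (91070057 to 91123844).

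Over the 8 genes with more than 1 transcript, 7 had the same main transcript in both hearts, beside 92.6% of detected coding genes with more than 1 transcript. The exception was Rb1, where the intervals of Rb1-201 and Rb1-202 overlapped in both pups, so its change was not resolved. The 8 include Cdkn2a, which was not detected and had 1 count in each library. Of the 30 transcripts, 16 were at 1 TPM or more in both hearts. The intervals of 3 of these did not overlap between the pups, beside 11.5% of all such transcripts. They were Cdkn1a-201 and Rb1-201, lower in pup 3, and Cdkn1b-201, higher in pup 3.

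Between the littermates the detected genes differed little. Ratios were taken from counts scaled by library (TMM), pup 3 over pup 2, and required a mean count of at least 50, which left out Cdkn2a and Cdkn2b. None of 8 genes passed 1.5-fold in either direction, beside 2.07% of 13463 genes, and none passed 1.2-fold, beside 15.2%. With spike-in scaling Cdkn1c passed 1.2-fold (log2 ratio 0.29), beside 16.3% of all genes, and no other scaling tried put any of the 8 past it. Spike-in scaling rests on only 262 spike-in counts in pup 2 and 246 in pup 3. Its shift between the hearts (0.09 in log2) is therefore imprecise, here and wherever it is used below. The largest positive log2 ratios were those of Cdkn1c (0.23), Cdkn1b (0.19) and Rbl1 (0.17). Rbl2 (0.11), Cdkn2c (0.08) and Cdkn2d (0.06) were nearer to 0. Cdkn1a (-0.06) and Rb1 (-0.21) had negative values.

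In direction, 6 of the 8 genes were higher in pup 3, beside 49.7% of all genes. The median log2 ratio of the 8 was 0.09, and that of all genes was -0.001. With spike-in scaling, which moved the median of all genes to 0.06, 7 of 8 were higher and Cdkn1a changed sign (log2 ratio 0.002). By TPM ratio 8 of 8 were higher, and both Cdkn1a and Rb1 changed sign. The intervals of TPM were apart between the pups for 2 of the 8 genes, Cdkn1b and Cdkn1c, beside 18.0% of genes at 1 TPM or more. Both were higher in pup 3, a direction with intervals apart in 7.17% of those genes. The red cell markers and the lung markers Scgb3a2, Scgb1a1 and Sftpc given above differed between the same hearts, with red cell genes at a median log2 ratio of -0.65.

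**Figure D4:**
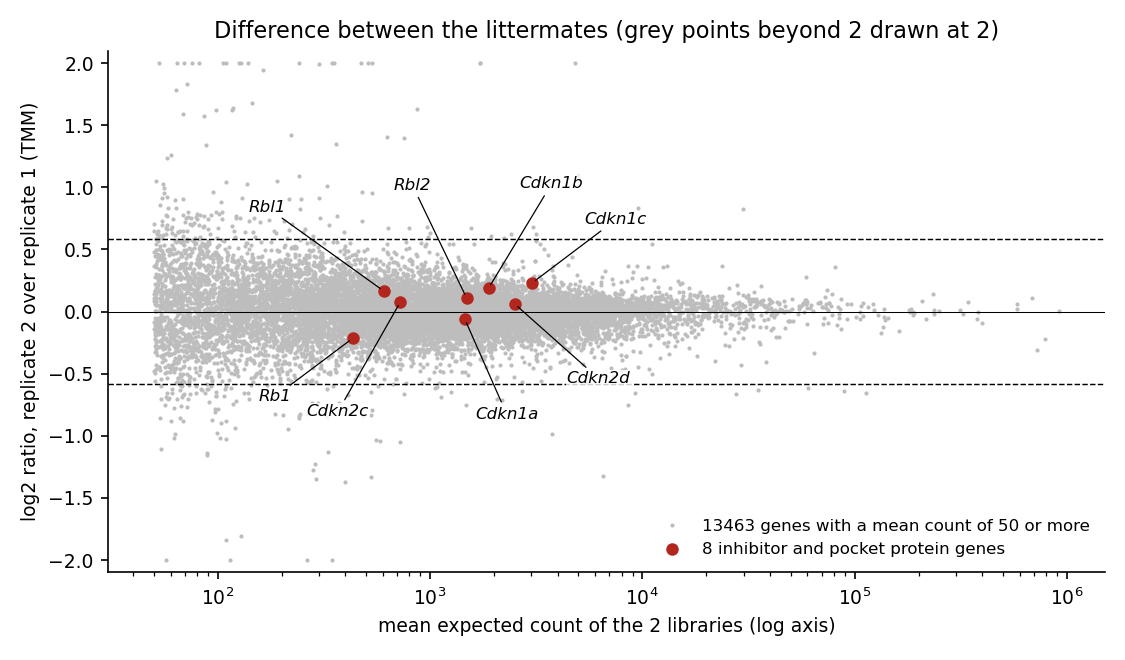
Log2 ratio of scaled counts, replicate 2 (pup 3) over replicate 1 (pup 2), against mean expected count on a log axis. Grey points are 13463 genes, red points the 8 inhibitor and pocket protein genes, and dashed lines mark 1.5-fold; all 8 lie between -0.21 and 0.23.

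The kinases and cyclins these inhibitors act on were all detected (8 of 8), beside 54.5% of protein-coding genes. Cdk4, a kinase that INK4 proteins bind, was at 292.9 and 282.2 TPM, 22.2-fold above Cdkn2c and 6.47-fold above Cdkn1c in mean TPM. Ccnd3 was at 136.5 and 141.6 TPM. Ccnd2 was at 63.4 and 62.2 TPM, 1.41-fold above Cdkn1c with intervals apart in both pups. On coding transcripts alone Cdk4 was at 87.7 and 94.2 TPM, 7.02-fold above Cdkn2c and 2.05-fold above Cdkn1c.

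The listed E2F and DP genes, DREAM and MuvB genes and E2F target genes were all detected, beside 54.5% of protein-coding genes. All 10 E2F and DP genes passed the detection threshold (median 5.48 TPM), led by the E2F partners Tfdp1 (34.8 and 35.1 TPM) and Tfdp2 (25.1 and 25.3 TPM) and by E2f6 (23.0 and 24.2 TPM). E2f4, the E2F that typically pairs with Rbl1 and Rbl2, was at 16.0 and 15.8 TPM, 3.37-fold above the activator E2f1 (4.61 and 4.83 TPM). The DREAM complex joins Rbl1 or Rbl2 with E2F to repress cell cycle genes. Of the genes listed for DREAM, MuvB and factors linked to them, not all of them parts of that complex, 7 of 7 were detected. They were led by the histone chaperone gene Rbbp4 (167.6 and 166.0 TPM), Lin37 (19.9 and 20.7 TPM) and Lin52 (9.09 and 10.6 TPM). E2F target genes were detected in 16 of 16 cases with a median of 26.6 TPM, led by Cdk1 (92.2 and 86.4 TPM), Rrm2 (62.2 and 68.3 TPM) and Ccnb1 (43.3 and 37.0 TPM). Of these targets 13 of 16 were higher in pup 3, beside 49.7% of all genes, with a median log2 ratio of 0.10 beside -0.001. Those lower in pup 3 were Cdk1 (-0.012), Ccna2 (-0.069) and Ccnb1 (-0.202), so Cdk1 and Ccnb1, among the most abundant, went the other way. The count higher in pup 3 ranged from 11 with unscaled counts (41.0% of all genes higher) to 14 with spike-in scaling (65.1%).

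Regulators of the inhibitors are read against the 54.5% of protein-coding genes detected in both hearts. Of 15 p53 pathway genes 14 were detected, led by Ccng1 (132.0 and 130 TPM), Bax (71.7 and 70.0 TPM) and Phlda3 (49.8 and 50.8 TPM), and Pmaip1 was at 0.71 and 0.51 TPM. Of 10 genes for turnover of the Cdkn1b and Cdkn1a proteins all were detected, led by the ubiquitin ligase subunit genes Skp1a (374.4 and 396.0 TPM) and Rbx1 (159.1 and 162.1 TPM) and by Cks1b (96.9 and 97.9 TPM). Of 11 FOXO, SMAD, Polycomb and homeobox or T-box regulators 10 were detected, led by Tbx20 (40.8 and 29.4 TPM), Meis1 (27.2 and 27.9 TPM) and Ezh2 (17.1 and 17.4 TPM), and the Polycomb gene Cbx7 was at 0.62 and 0.76 TPM. In the imprinted domain around Cdkn1c, 5 of 10 genes were detected in both hearts, a share near that background, led by Cd81 (616.5 and 599.5 TPM), Nap1l4 (142.6 and 136.9 TPM) and Kcnq1 (28.3 and 27.5 TPM). Kcnq1ot1 fell under 1 TPM (0.53 and 0.48 TPM) through division by length, since it was assigned 1711 and 1512 expected counts. In pup 2 its expected counts (1710.78) and those of Kcnq1 (3015.22) add to a whole number. Reads were thus shared between Kcnq1ot1 and Kcnq1, and the counts of each are an estimated split. Cdkn1c was higher in pup 3 by a log2 ratio of 0.23, while 0 of the 7 domain genes with a mean count of at least 50 were higher there (median -0.09), beside 49.7% and a median of -0.001 over all genes. With spike-in scaling 3 of these 7 were higher (median -0.03), beside 65.1% of all genes. Of the 87 genes in these 8 lists, 84 had a mean count of at least 50, and none of the 84 passed 1.5-fold between the pups, beside 2.07% of all genes.

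**Figure D5:**
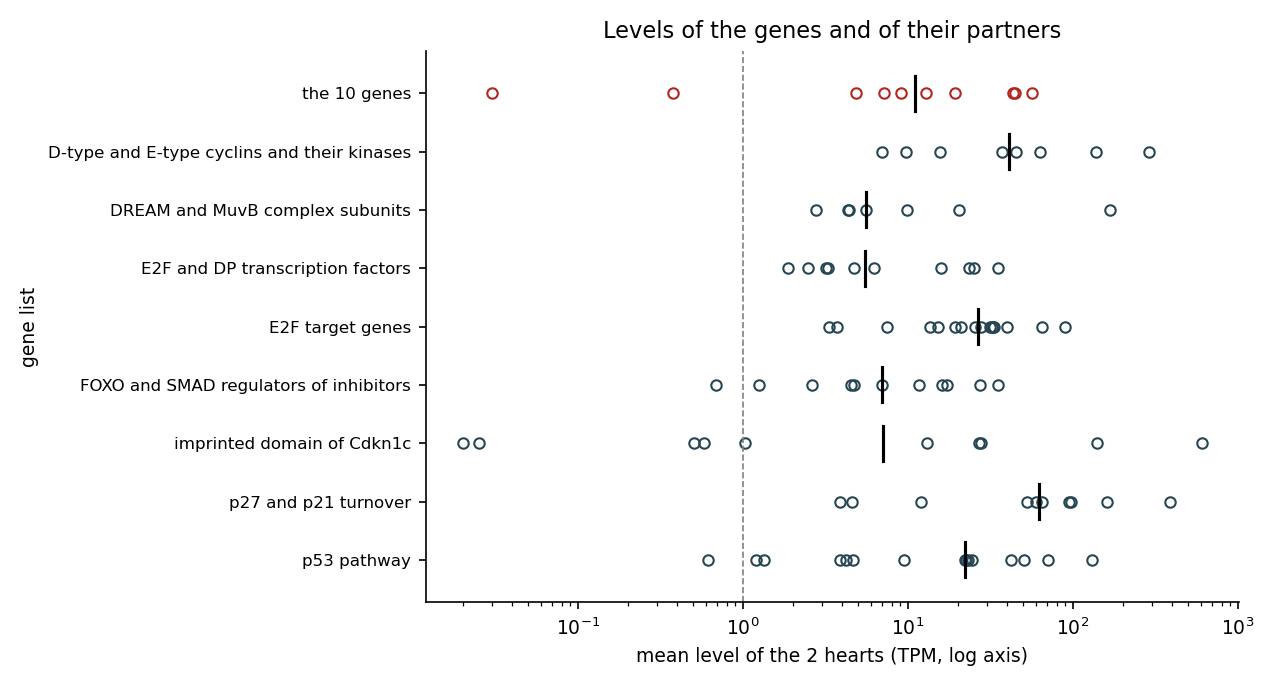
Mean level of the 2 hearts in TPM on a log axis for the 10 genes (red) and for each list of partners or regulators (dark), with 1 circle per gene and a black bar at the median. The cyclins and kinases have a median of 41.1 TPM and the turnover genes one of 62.1 TPM, beside 10.99 TPM for the 10 genes.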

How the data were processed

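The authors deposited a gene and a transcript table for each heart, without pooling; RNA input was 10 ng and RNAs over 200 bases were kept, per the labels. The read-me deposited by the authors names build mm10 and annotation GENCODE M4; the aligner was not given in the sources used here. Per the file headers, expected counts are the authors' estimated reads per gene or transcript. TPM and FPKM values were deposited after division by effective length, which is 99 bases below length. The deposited tables also hold posterior SDs of counts and bounds of credibility intervals (a signal on the TPM scale, of unstated width), and a percent column, each transcript's share of its gene. Symbols, biotypes and coordinates came from GENCODE M21 of the same build (42462 of 43346 genes matched by identifier), in which 23 of the 30 transcripts have the length the files give.

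The genes, lists, pairs and tests were chosen with earlier results of these data known. Named were all 10 genes, both genes of 14 fixed pairs, the 3 most abundant genes of each list and every gene under 1 TPM where a list had 3 or fewer, genes overlapping the 10 on the genome, and transcripts with 5% or more of their gene. Kcnq1ot1, Ccna2 and the cell type markers were named outside this rule. Annotated overlapping genes without a match in the files were not analysed here. With 2 libraries no likeness of pattern across samples can be measured. Log2 ratios of TPM used a pseudocount of 1. Expected counts were rounded for the ratios between the hearts, which used TMM scaling and a prior count of 2 in edgeR 4.0.16 under R 4.3.3, checked on simulated data. The libraries were not 1 library deposited as 2 (chi-square per degree of freedom 14.9 over 16593 genes). Python 3.11.15 with scipy 1.17.1, numpy 2.4.6 and pandas 2.3.3 gave the other values, and matplotlib 3.10.9 the plots. Alternatives were other detection thresholds, FPKM, posterior means, counts not divided by length, DESeq2 1.42.0 size factors, spike-in scaling, other prior counts and filters, coding transcripts only, and each replicate left out.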

Additional observations from a re-analysis of the deposited data

How the results depend on the processing

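No paired analysis was possible because there was 1 group only. Depth limits Cdkn2a, and leaves Cdkn2b out of ratios between the pups, and the estimated split of reads limits Rb1. Without length division (expected counts per gene), the order reversed for Cdkn2d over Cdkn1c (log2 ratio -0.27), Cdkn1a over Cdkn1b (-0.37; as a pair, Cdkn1b over Cdkn1a, 0.37), Cdkn2c over Rbl2 (-1.03) and Rb1 over Rbl1 (-0.49), and all 9 neighbours counted as separated, since no intervals apply to counts. Counting coding transcripts only moved the pocket protein sum from 21.1 to 12.1 TPM and the sum of Cdk2, Cdk4 and Cdk6 from 340.3 to 143.7 TPM. With that choice, added after seeing the data, 11 of 14 pairs and 6 of 9 neighbours were separated, beside 10 and 5. The log2 ratio of Cdkn1c to Cdkn1a ranged from -0.0607 without replicate 2, a reversal, to 0.127 without replicate 1. With 1 replicate left out, separated neighbours ranged from 5 to 7, separated pairs from 10 to 12 and detected list genes from 80 to 81. Genes detected stayed at 8 except at 5 TPM, where 7 of the 10 passed, and no scaling, prior count or filter tried put any of the 8 past 1.5-fold.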
